A study of Homo sapiens with 6 samples.

Results

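Pleiotrophin, midkine and the proteins that bind them or act below their receptor phosphatase PTPRZ1 were followed as 10 genes in A498 cells, a human kidney cancer line grown in MEM with fetal bovine serum. The genes were chosen by symbol: the ligands PTN and MDK, the co-receptors SDC1, SDC3, SDC4 and NCL, and the substrates or effectors SRC, FYN, GIT1 and CTNNB1. All 10 were found among the 61860 genes of the table, and all 10 had enough counts to be tested. The study set a knockdown of PTPRZ1 (PTPRZ-Si, 3 libraries) against its control (PTPRZ-nc, 3 libraries). By the labels the control was made with a plasmid and the knockdown with siRNA, so the vehicle and the knockdown cannot be told apart, and both groups carry the same treatment label of transfection and infection. The series title places this in work on PTPRZ1, the ubiquitin ligase RNF26 and drug efficacy in clear cell kidney cancer.

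PTPRZ1 is a transmembrane tyrosine phosphatase whose outer part carries chondroitin sulfate chains. Pleiotrophin and midkine are small heparin-binding growth factors. In the textbook account they bind these chains and pair the phosphatase into an inactive form, so that tyrosines on its substrates stay phosphorylated. The same ligands also bind syndecans, which are membrane proteins with heparan sulfate chains, and nucleolin at the cell surface. These are controls on protein activity, and the present data are levels of mRNA.

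Libraries held 13726908 to 21469746 counts in genes, and no label tells whether the replicates were separate cultures. The p-values then reflect no more than the spread from library to library, possibly a technical one. PTPRZ1 itself had 0 counts in all 6 libraries, which allows at most 0.0607 CPM over the 3 controls together and 0.0527 CPM over the 3 knockdown libraries (3 counts as the limit, counting error only; CPM are counts per 1000000 in genes). The knockdown therefore could not be checked by its target, and every direction below rests on the group labels. All 9 listed markers of renal tubule and kidney carcinoma had counts, with summed levels of 3112 to 3160 CPM in the controls and 3174 to 3306 CPM in the knockdown. Most of this sum was KRT8, at 1198 and 1315 CPM on average, and VIM, at 1181 and 788 CPM. CA9 was low, at 3 and 2.54 CPM, and did not pass (edgeR adjusted p = 0.508). Of these 9, 6 rose and 2 fell at an edgeR adjusted p of at most 0.05. That is 88.9%, against 27.4% of all tested genes, of which 14% were higher and 13.4% lower. Among genes averaging 5 CPM or more the share was 37.1%. Some markers changed by more than any of the 10 genes: CDH6 rose 2.08-fold and PAX8 1.77-fold, while VIM fell 1.5-fold (edgeR adjusted p = 2.46e-09, 1.81e-09 and 8.69e-09). LHX1 fell 2.07-fold from a low level (edgeR adjusted p = 0.0191) and missed the threshold when control replicate 2 or knockdown replicate 1 or 2 was left out (edgeR adjusted p = 0.0794, 0.0668 and 0.0614). These markers were named after their values were seen. Among markers of other cell types, PTPRC and CD3E of leukocytes, CDH5 of endothelium, LUM of fibroblasts and OLIG2 of glia were at 0 in every library, and the others had counts. Summed levels were 0.427 to 0.643 CPM in the controls and 0.288 to 0.374 CPM in the knockdown for 5 leukocyte markers, and 0.935 to 1.1 and 1.4 to 1.63 CPM for 4 endothelial markers. For 4 fibroblast markers they were 31.4 to 41.7 and 21.6 to 23.6 CPM, nearly all from COL1A1, which fell 1.59-fold (edgeR adjusted p = 5.63e-05), and for 5 glial and neuronal markers 9.06 to 9.98 and 11 to 12.5 CPM. Most of the last sum was GFAP, at 6.87 and 7.29 CPM on average, and RBFOX3, which rose from 2.26 to 4.13 CPM (edgeR adjusted p = 0.0138, and 0.0784 when knockdown replicate 3 was left out). PECAM1, an endothelial marker, was at 0.715 and 1.36 CPM on average with no overlap and did not pass (edgeR adjusted p = 0.0586). The part of these shifts in the results below was not tested.

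Of the 10 genes, SDC1 and SDC4 fell in the knockdown, SRC and GIT1 rose, and 6 did not pass. These 4 calls compare with 27.4% of 15476 tested genes called in either direction (edgeR's quasi-likelihood test, adjusted p of at most 0.05). By direction, 2 of 10 were higher against 14% of all tested genes, and 2 of 10 were lower against 13.4%. Among genes that average 5 CPM or more the background was 37.1%, and 4 of the 8 genes that reach that level were called. The share of called genes is thus near the background, and it says nothing particular about the set. The median log2 fold change was -0.16 over the 10 genes and 0.00 over all tested genes. The median called gene differed 1.26-fold, and the 4 genes here differed 1.21-fold to 1.44-fold. In absolute log2 fold change, SDC4 exceeded 78% of called genes, GIT1 78.2%, SRC 63.7% and SDC1 37.3%. In bulk RNA, fewer cells with a transcript and less of it per cell cannot be told apart.

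**Figure D1:**
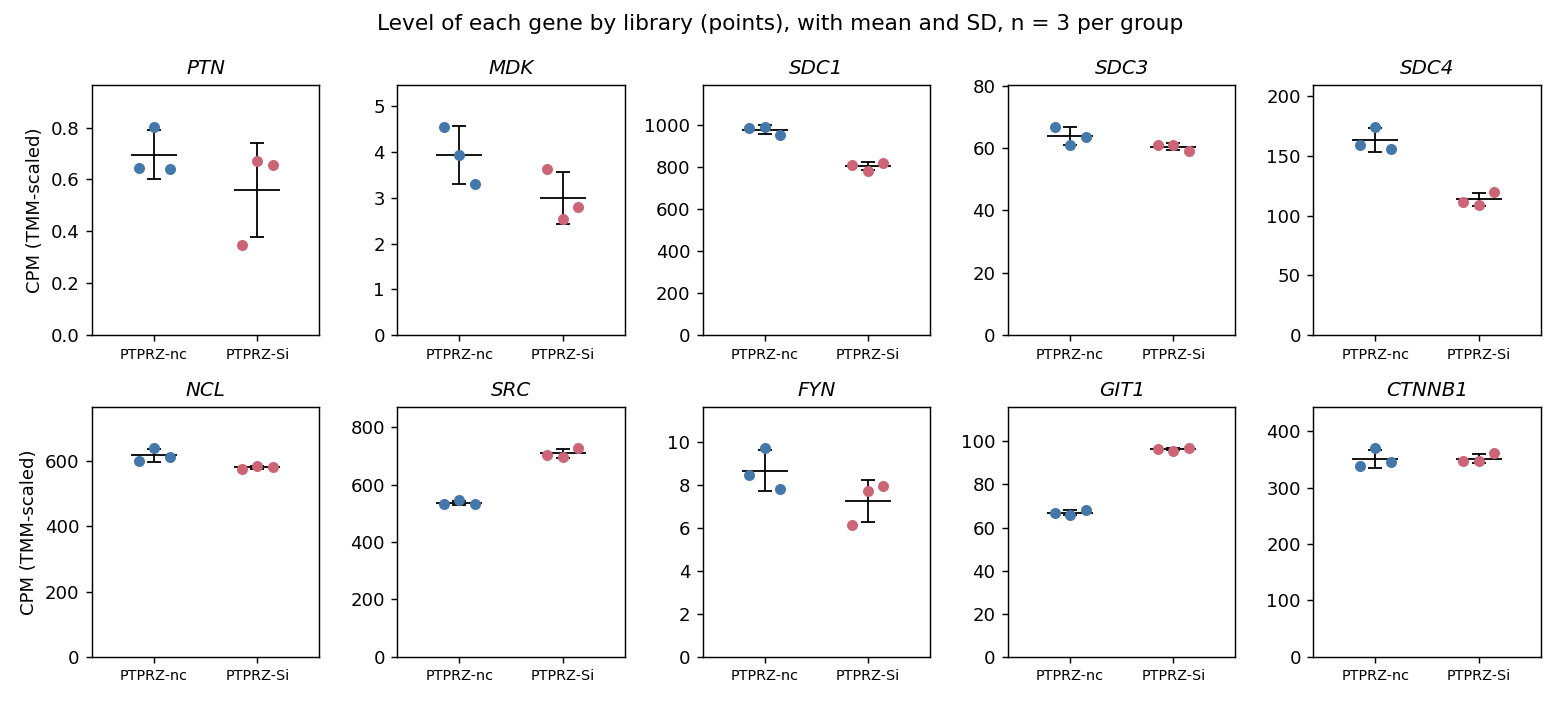
Level of each of the 10 genes in CPM (after TMM scaling, linear axes from 0, a separate scale per gene) in the 3 PTPRZ-nc and the 3 PTPRZ-Si libraries; points are libraries, bars the mean and SD. SDC1 and SDC4 lay lower and SRC and GIT1 higher in every knockdown library than in any control, while CTNNB1 stayed near 351 CPM in both groups.

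The genes differ widely in level, which a comparison per length of exon shows (CPM per kilobase, with the union of all exons annotated in GENCODE 29). In the controls SDC1 was the most abundant at 272 CPM per kilobase, followed by NCL at 89.1, SRC at 83.1, SDC4 at 62.5 and CTNNB1 at 29.4. GIT1 at 11.9 and SDC3 at 9.03 came next, and MDK at 1.79, FYN at 1.17 and PTN at 0.406 were the lowest. The control libraries of neighbours in this order did not overlap. NCL and SRC changed places in the knockdown libraries. With the length of the principal transcript in place of all exons, CTNNB1 passed SDC4 and SDC3 passed GIT1, so these ranks depend on the gene model. The receptor was thus counted at 0 and its ligands at low levels, while SDC1, NCL and SRC had the highest levels of the 10 with either length.

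Sequences upstream of the genes that moved most are shown because SDC4 and GIT1 changed by nearly the same amount in opposite directions, with PTN beside them as the gene with the lowest level. Each runs 5′ to 3′ on the strand of its gene, covers the 250 bases before the start in RefSeq (GRCh38.p14), and has in capitals the matches to the motif of EGR factors (GCGNGGGCG) or of AP-1 (TGANTCA), searched on both strands. The windows are chr20:45348425-45348674 for SDC4, chr17:29589649-29589898 for GIT1 and chr7:137343734-137343983 for PTN, all on the minus strand.
SDC4: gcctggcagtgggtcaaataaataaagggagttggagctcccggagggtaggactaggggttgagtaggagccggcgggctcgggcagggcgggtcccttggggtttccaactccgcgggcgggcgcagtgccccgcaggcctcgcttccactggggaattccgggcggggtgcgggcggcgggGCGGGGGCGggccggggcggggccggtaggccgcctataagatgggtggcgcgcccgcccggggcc
GIT1: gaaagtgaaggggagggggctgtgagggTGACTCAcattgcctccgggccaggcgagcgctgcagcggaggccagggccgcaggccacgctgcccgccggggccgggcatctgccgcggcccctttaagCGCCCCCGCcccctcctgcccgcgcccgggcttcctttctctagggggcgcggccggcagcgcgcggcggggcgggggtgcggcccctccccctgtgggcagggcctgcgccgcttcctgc
PTN: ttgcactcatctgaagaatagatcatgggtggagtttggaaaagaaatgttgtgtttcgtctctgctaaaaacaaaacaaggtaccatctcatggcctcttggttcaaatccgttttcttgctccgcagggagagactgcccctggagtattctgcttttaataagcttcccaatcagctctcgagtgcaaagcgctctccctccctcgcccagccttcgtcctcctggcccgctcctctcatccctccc
SDC4 has an EGR match whose 5′ end is 66 bases before the start. GIT1 has one at 121 bases before the start on the other strand and an AP-1 match at 222 bases. PTN has neither in the 250 bases, and its AP-1 match lies 42 bases past the start, outside what is shown.

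RefSeq windows of 250 bases before to 50 after the start were at hand for 8 of the 10 genes with 12 starts in all, and MDK and SRC had no entry. The EGR motif was present at a start of 4 of the 8 genes (SDC3, SDC4, FYN and GIT1), against 9.43% of 35116 promoters of the same length and 31.7% of the 7119 with at least 70% G and C. These and the promoter shares below count single promoters, while a gene counts by any of its starts. Genes with several starts, such as FYN, thus have more chances of a match, and the shares are not like for like. Of the 4 genes with an EGR match, SDC4 fell, GIT1 rose, and SDC3 and FYN did not pass. SDC1, which also fell, had no match at either of its starts. The window of SDC4 is 74% and that of GIT1 78.3% G and C, that of PTN 50.3%, and the median promoter 58.7%. The GC box GGGCGG, which overlaps the EGR motif in SDC4, was present at a start of 7 of the 8 genes. It was present in 45% of all promoters and in 92.7% of those with at least 70% G and C. SDC4 had 8 matches, GIT1 3 and PTN 0. CTTTGA, a core of the TCF/LEF motif, was present at starts of FYN alone (12.9% of all promoters), and TATAAA at none (11.5%). A match describes letters and is not a bound site. EGR1, the best known EGR factor, fell from 12.7 CPM (SD 1.43) to 0.822 CPM (SD 0.131) in these libraries (3 libraries a group, edgeR adjusted p = 2.43e-10), and whether it bears on these genes was not tested.

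The ligands were barely counted. PTN (ENSG00000105894, GRCh38 chromosome 7 from 137227341 to 137343865, minus strand), pleiotrophin, was seen 11, 11 and 12 times in control replicates 1, 2 and 3, and 5, 14 and 14 times in those of the knockdown (counts). The groups overlapped, with the lowest library in the knockdown. Its log2 fold change was -0.26 with a 95% interval from -1.15 to 0.64 (edgeR adjusted p = 0.708). That interval reaches from 2.22-fold lower to 1.56-fold higher, so changes of that size in either direction are not excluded. MDK (ENSG00000110492, chromosome 11 from 46380756 to 46383837, plus strand), midkine, was counted 78, 54 and 62 times in the controls, against 52, 53 and 60 times after knockdown. That came to 4.56, 3.95 and 3.31 CPM against 3.62, 2.54 and 2.81 CPM. Knockdown replicate 1 lay above control replicate 3, and the difference did not pass (log2 fold change -0.41, 95% interval from -0.86 to 0.04, edgeR adjusted p = 0.172).

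The co-receptors moved unevenly. SDC1 (ENSG00000115884, chromosome 2 from 20200797 to 20225433, minus strand), syndecan-1 of epithelial and plasma cells, was at 988, 994 and 954 CPM in the controls, against 813, 784 and 822 CPM after knockdown. All controls were above all knockdown libraries, and the fall was 1.21-fold (log2 fold change -0.28, SE 0.0349, 95% interval from -0.35 to -0.21, edgeR adjusted p = 1.26e-05). SDC4 (ENSG00000124145, chromosome 20 from 45325288 to 45348424, minus strand), syndecan-4 of focal adhesions, was at 159, 175 and 156 CPM in the controls, against 112, 109 and 120 CPM after knockdown. It fell 1.44-fold with no overlap (log2 fold change -0.52, SE 0.0535, 95% interval from -0.63 to -0.41, edgeR adjusted p = 1.45e-06). The intervals of SDC1 and SDC4 do not overlap each other, though a difference between the genes was not tested.

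SDC3 (ENSG00000162512, chromosome 1 from 30869467 to 30908761, minus strand), the syndecan best known from neurons as a receptor of pleiotrophin, was at 66.9, 61.1 and 63.5 CPM in the controls, against 61.1, 61.1 and 59.2 CPM after knockdown. The groups met at control replicate 2, and the difference did not pass (log2 fold change -0.08, 95% interval from -0.20 to 0.04, edgeR adjusted p = 0.325). NCL (ENSG00000115053, chromosome 2 from 231453531 to 231483641, minus strand), nucleolin, an RNA-binding protein of the nucleolus, was at 601, 638 and 612 CPM in the controls, against 576, 585 and 582 CPM after knockdown. Its groups did not overlap, yet the difference was small and did not pass after adjustment (log2 fold change -0.09, SE 0.0365, edgeR adjusted p = 0.0897). Groups did not overlap for 5 of the 10 genes (the 4 called genes and NCL), against 40.8% of all tested genes.

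The make-up of the syndecans shifted a little while their sum went down. Summed per length, SDC1 to SDC4 stood at 356, 363 and 346 CPM per kilobase in the controls, against 288, 279 and 293 after knockdown, 80.8% of the control mean. SDC1 made up 76.7% ± 0.588 of this sum in the controls and 78.2% ± 0.366 in the knockdown, and SDC4 17.6% ± 0.689 and 15.2% ± 0.419 (SD, n = 3 each). SDC3 held 2.55% ± 0.149 and 2.99% ± 0.12. SDC2, the fourth syndecan, had a log2 fold change of -0.09 that did not pass (edgeR adjusted p = 0.344) and held 3.15% ± 0.232 and 3.65% ± 0.228. The groups did not overlap for any of these shares, and the exact 2-sided permutation test gave p = 0.1 for each, the smallest that 3 against 3 allows. The small gain of SDC1 depends on the length used: it was 1.5 percentage points on the union of exons, and 0.309 points with p = 0.2 in the exact permutation test on principal transcripts.

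**Figure D2:**
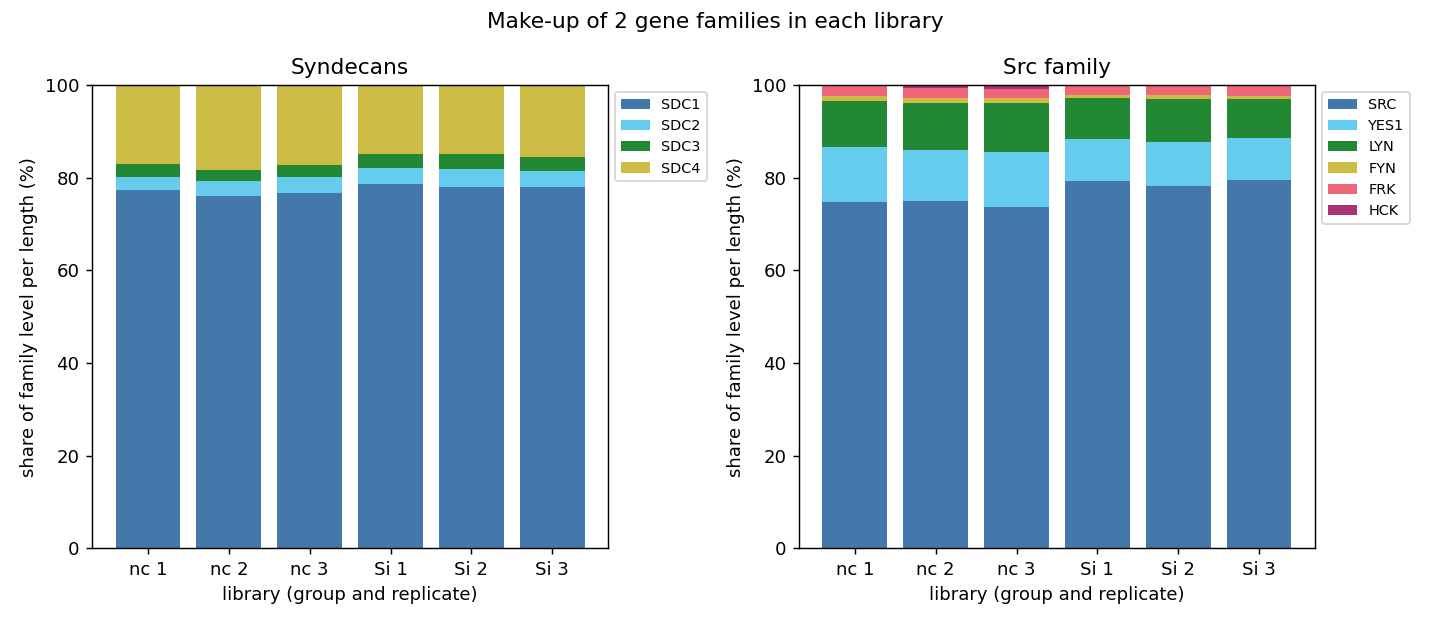
Share of each gene (%) in the summed level per kilobase of exon of the 4 syndecans (left) and of the Src family (right), by library; bars are single libraries, PTPRZ-nc 1 to 3 and PTPRZ-Si 1 to 3, and LCK, FGR and BLK, each under 0.1% in every library, are not drawn. SDC4 takes a smaller part in each knockdown library (15.2% on average against 17.6%) and SRC a larger one (79% against 74.5%).

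Among substrates and effectors, SRC and GIT1 rose. SRC (ENSG00000197122, chromosome 20 from 37344685 to 37406050, plus strand), the founding member of the Src tyrosine kinases, was at 534, 545 and 534 CPM in the controls, against 705, 696 and 727 CPM after knockdown. All knockdown libraries lay above all controls, a rise of 1.32-fold (log2 fold change 0.40, SE 0.0354, 95% interval from 0.33 to 0.48, edgeR adjusted p = 2.7e-07). GIT1 (ENSG00000108262, chromosome 17 from 29573469 to 29594054, minus strand), a scaffold that turns off ARF GTPases and carries PIX and PAK proteins, was at 66.8, 65.6 and 68.3 CPM in the controls, against 96.5, 95.7 and 96.7 CPM after knockdown. It rose 1.44-fold with no overlap (log2 fold change 0.52, SE 0.0492, 95% interval from 0.42 to 0.63, edgeR adjusted p = 4.99e-07).

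FYN (ENSG00000010810, chromosome 6 from 111660332 to 111873452, minus strand), a Src family kinase and a known PTPRZ1 substrate, was at 8.47, 9.72 and 7.84 CPM in the controls, against 6.13, 7.73 and 7.95 CPM after knockdown. Knockdown replicate 3 lay above control replicate 3, and the difference did not pass (log2 fold change -0.24, 95% interval from -0.54 to 0.07, edgeR adjusted p = 0.246). CTNNB1 (ENSG00000168036, chromosome 3 from 41194741 to 41260096, plus strand), beta-catenin, was at 339, 369 and 345 CPM in the controls, against 346, 347 and 361 CPM after knockdown. The groups overlapped throughout (log2 fold change 0.00, edgeR adjusted p = 0.983). Its 95% interval ran from -0.09 to 0.09 on the log2 scale. None of the 10 genes has exons that overlap those of another gene in GENCODE 29, so reads of a partner on the other strand were not seen to be mixed in.

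**Figure D3:**
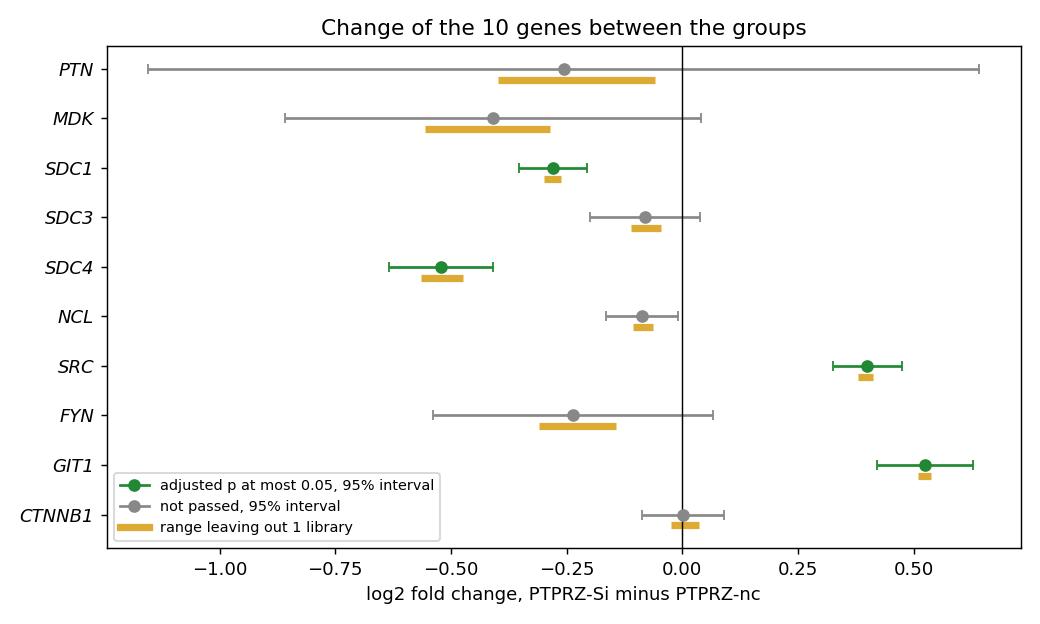
Log2 fold change (PTPRZ-Si minus PTPRZ-nc) of the 10 genes, with the 95% interval of edgeR's fit and, as a yellow bar, the range over fits that leave out 1 library. SRC (0.40) and GIT1 (0.52) are to the right of 0, SDC1 (-0.28) and SDC4 (-0.52) to the left, and PTN has the widest interval (-1.15 to 0.64).

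SRC outweighed its relatives at the RNA level. Per length it made up 74.5% ± 0.651 of the Src family in the controls and 79% ± 0.77 in the knockdown (SD, n = 3 each), followed by YES1 with 11.5% ± 0.525 and 9.16% ± 0.42 and LYN with 10.2% ± 0.314 and 8.9% ± 0.374. FYN held 1.05% ± 0.111 and 0.706% ± 0.0904. LCK, a kinase of T cells, had 0 counts in all libraries. The groups did not overlap for SRC, YES1, LYN or FYN (exact 2-sided permutation p = 0.1 for each, the smallest possible). The sum over the family was 110, 112 and 112 CPM per kilobase in the controls, against 138, 138 and 141 after knockdown, and YES1 (log2 fold change -0.02, edgeR adjusted p = 0.845) and LYN (0.11, edgeR adjusted p = 0.138) did not pass on their own.

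Of 8 tested genes among the other Src kinases and their regulators, 2 rose and 1 fell (37.5% called). For this and each list below, 27.4% of all tested genes were called, 14% higher and 13.4% lower. Among genes averaging 5 CPM or more the share was 37.1%. The lists are small, and whether any of them differs from this background was not tested. CSK, the kinase that phosphorylates the inhibitory tail of Src kinases, fell from 69 CPM (SD 1.63) to 58 CPM (SD 2.87, 3 libraries a group, edgeR adjusted p = 0.00326). PTPN1, a phosphatase that acts on the same tail, rose from 89.7 CPM (SD 7.04) to 112 CPM (SD 1.71) (edgeR adjusted p = 0.00044). FRK, a kinase related to Src, rose from 31.9 CPM (SD 0.544) to 37.4 CPM (SD 0.967) (edgeR adjusted p = 0.0145), but did not pass without knockdown replicate 1 or 3 (edgeR adjusted p = 0.0538 and 0.0688).

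Around GIT1, 4 of 11 tested partners fell and 1 rose (45.5% called, against 27.4% of all tested genes). ARF6, a GTPase on which GIT proteins act, fell from 153 CPM (SD 6.89) to 124 CPM (SD 8.07, 3 libraries a group, edgeR adjusted p = 0.000492), and the kinase PAK2 from 151 CPM (SD 3.61) to 134 CPM (SD 3.69) (edgeR adjusted p = 0.0108). PAK2 did not pass without knockdown replicate 1 (edgeR adjusted p = 0.0678), and without that library 2 partners fell. SCRIB, a polarity scaffold that binds PIX, fell from 40.1 CPM (SD 10.6) to 25.3 CPM (SD 6.01), with uneven controls at 52.3, 34.9 and 33.2 CPM, and did not pass in DESeq2 (adjusted p = 0.0818). ARHGEF6, alpha-PIX, rose from 67 CPM (SD 4.41) to 79.3 CPM (SD 0.729) (edgeR adjusted p = 0.00409). GIT2, the close relative of GIT1, was at 24.6 ± 3.22 and 26.4 ± 0.94 CPM and did not pass (log2 fold change 0.09, edgeR adjusted p = 0.488).

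Called were 38.9% of 18 tested partners of beta-catenin, against 27.4% of all tested genes. Of the 18, 3 rose, 4 fell and 11 did not pass, beside a flat CTNNB1. Those that rose were JUP, plakoglobin, from 50.8 CPM (SD 2.64) to 65.7 CPM (SD 2.62), BCL9, a coactivator, from 47.9 CPM (SD 7.16) to 65.7 CPM (SD 2.5) and TCF7, a DNA-binding partner, by 0.33 on the log2 scale (3 libraries a group, edgeR adjusted p = 0.000193, 0.000566 and 0.001). CTNNBIP1, which keeps beta-catenin from TCF proteins, fell from 14 CPM (SD 1.68) to 8.88 CPM (SD 1.05) (edgeR adjusted p = 0.000845). BTRC, the adaptor that brings phosphorylated beta-catenin to a ubiquitin ligase, fell from 33.1 CPM (SD 2.96) to 26.5 CPM (SD 1.39) (edgeR adjusted p = 0.00608). CDH3, a cadherin, fell from 2.04 CPM (SD 0.79) to 0.844 CPM (SD 0.392) (edgeR adjusted p = 0.0204) but missed the threshold when control replicate 1 or knockdown replicate 1 or 3 was left out (edgeR adjusted p = 0.153, 0.0745 and 0.0973). An antisense gene shares 12.7% of the annotated exon length of CTNNBIP1 and another 11.1% of that of CDH3. Each of these antisense genes had 0 counts over the libraries, and the counting did not use strand.

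Genes listed here as other reported substrates of PTPRZ1 went both ways: of 14 tested, 2 rose, 3 fell and 9 did not pass. That is 35.7% called, against 27.4% of all tested genes. The list was set by symbol with earlier results of these data known, and whether PTPRZ1 acts on any of its genes was not tested. The scaffold MAGI1 rose from 20.5 CPM (SD 2.25) to 29.5 CPM (SD 0.838, 3 libraries a group, edgeR adjusted p = 0.00022), while its relative MAGI3 fell from 13.9 CPM (SD 1.42) to 10.7 CPM (SD 1.14) (edgeR adjusted p = 0.02). The adducins, proteins of the membrane skeleton, also split, with ADD2 down from 69.9 CPM (SD 1.97) to 55.7 CPM (SD 0.433) (edgeR adjusted p = 0.000211) and ADD1 up with a log2 fold change of 0.14 (edgeR adjusted p = 0.0274). RNF26, the ligase named in the title, fell from 49 CPM (SD 0.94) to 41.1 CPM (SD 3.55; edgeR adjusted p = 0.0128), and an antisense gene with 0 counts shares 18.2% of its exon length. Several of these calls were lost in fits that leave out 1 library, though the log2 fold changes kept their sign. MAGI3 missed the threshold when control replicate 1 or 3 or knockdown replicate 2 or 3 was left out (edgeR adjusted p = 0.0764, 0.0806, 0.0539 and 0.105). ADD1 did so for control replicate 1 or 3 and knockdown replicate 1 or 3 (edgeR adjusted p = 0.0748, 0.114, 0.132 and 0.101), and RNF26 did not pass without knockdown replicate 1 or 2 (edgeR adjusted p = 0.061 and 0.0697). The count of 5 called genes of this list became 3 when control replicate 3 or any 1 knockdown library was left out. The same fits called 3182 to 3750 of all tested genes, against 4243 in the main fit.

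Other receptors of pleiotrophin and midkine included several abundant genes. Of 13 tested, 3 rose, 6 fell and 4 did not pass (69.2% called, against 27.4% of all tested genes). The integrin subunits ITGA6, ITGB1 and ITGAV fell, from 108 CPM (SD 4.47) to 75.5 CPM (SD 4.57), from 1486 CPM (SD 18.8) to 1292 CPM (SD 26.3) and from 876 CPM (SD 17.8) to 768 CPM (SD 5.9, 3 libraries a group, edgeR adjusted p = 2.57e-06, 0.000136 and 0.000437). PTPRS, another receptor phosphatase that binds glycosaminoglycans, rose from 249 CPM (SD 5.62) to 327 CPM (SD 8.54) (edgeR adjusted p = 1.51e-06). ITGB3 rose from 609 CPM (SD 23.2) to 663 CPM (SD 9.68) (edgeR adjusted p = 0.0228), but did not pass without knockdown replicate 1 or 3 (edgeR adjusted p = 0.103 and 0.104). It shares 51.6% of its exon length with another gene model on its strand, which had 0 counts. The receptor kinase ALK, named after its values were seen because it had the largest log2 fold change of the list, had 0.584, 0.512 and 0.427 CPM in the controls and 1.12, 1.82 and 1.22 CPM in the knockdown (log2 fold change 1.46, SE 0.38, edgeR adjusted p = 0.0083). It missed the threshold when knockdown replicate 2, its highest library, was left out (edgeR adjusted p = 0.0681).

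Other proteins known to bind the outer part of PTPRZ1 were listed together with its nearest relative. Of 8 tested genes, 4 rose, 0 fell and 4 did not pass. That is 50% called, against 27.4% of all tested genes, of which 14% were higher. NRCAM, a neural adhesion molecule, rose from 115 CPM (SD 2.66) to 145 CPM (SD 1.24) and PTPRG, the phosphatase closest to PTPRZ1, from 56.5 CPM (SD 2.23) to 69.4 CPM (SD 3.14, 3 libraries a group, edgeR adjusted p = 2.16e-05 and 0.000958). IL34, a cytokine that binds CSF1R and PTPRZ1, was at 1.4, 1.68 and 1.33 CPM in the controls, against 2.51, 2.69 and 2.67 CPM after knockdown (edgeR adjusted p = 0.0168), but missed the threshold when control replicate 1 or 3 or knockdown replicate 2 or 3 was left out (edgeR adjusted p = 0.0522, 0.0598, 0.0528 and 0.0547). CNTN1, the classic partner of PTPRZ1 on neurons, was at 0 in the 3 controls and too low to test. When control replicate 3 or knockdown replicate 2 or 3 was left out, 2 genes of this list rose.

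The genes that build and trim the sugar chains on syndecans were also mixed. For the linker and heparan sulfate, 3 of 14 tested genes rose, 4 fell and 7 did not pass. That is 50% called, against 27.4% of all tested genes. XYLT2, which starts the chain on the core protein, fell from 89.8 CPM (SD 1.91) to 61.3 CPM (SD 0.323) and EXTL3, which starts heparan sulfate on the linker, from 82 CPM (SD 4.27) to 60.8 CPM (SD 1.59), while the sulfotransferase HS6ST1 rose from 62.1 CPM (SD 5) to 90.8 CPM (SD 5.99, 3 libraries a group, edgeR adjusted p = 3.77e-07, 1.91e-05 and 6.47e-06). Smaller changes were those of the polymerase EXT2 (log2 fold change -0.16), the galactosyltransferase B3GALT6 (0.33) and the epimerase GLCE (0.24). These calls did not hold in every fit that leaves out 1 library. EXT2 missed the threshold when knockdown replicate 2 or 3 was left out (edgeR adjusted p = 0.0553 and 0.07), B3GALT6 for control replicate 1 (edgeR adjusted p = 0.0512), and GLCE for control replicate 2 or knockdown replicate 1 or 2 (edgeR adjusted p = 0.0589, 0.0788 and 0.088). With knockdown replicate 2 left out, 2 genes rose and 2 fell.

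For chondroitin sulfate, 1 of 14 tested genes rose, 3 fell and 10 did not pass (28.6% called, against 27.4% of all tested genes). CHST14, a sulfotransferase of dermatan sulfate, fell from 36.3 CPM (SD 1.07) to 23.9 CPM (SD 0.419), and CSGALNACT1, which starts chondroitin on the linker, rose from 16.4 CPM (SD 1.47) to 21.5 CPM (SD 0.918, 3 libraries a group, edgeR adjusted p = 5.33e-06 and 0.00307). The falls of the sulfotransferases CHST3 (log2 fold change -0.14, edgeR adjusted p = 0.0226) and CHST15 (-0.13, edgeR adjusted p = 0.0434) were small. CHST3 missed the threshold when control replicate 1 or knockdown replicate 1 or 2 was left out (edgeR adjusted p = 0.0747, 0.0745 and 0.102), and in each of these fits 1 gene of the list rose and 1 fell. CHST15 did so for control replicate 1 or 3 and for each knockdown library (edgeR adjusted p = 0.0959, 0.147, 0.0884, 0.0709 and 0.181).

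Of 10 tested adaptors, sheddases and sulfatases of syndecans, 3 rose, 1 fell and 6 did not pass. That is 40% called, against 27.4% of all tested genes. GIPC1, a PDZ protein that binds the tail of syndecan-4, rose from 123 CPM (SD 8.77) to 209 CPM (SD 8.52), or by 0.77 on the log2 scale (3 libraries a group, SE 0.0534, edgeR adjusted p = 1.64e-08). The sulfatases of heparan sulfate moved apart, with SULF2 up from 126 CPM (SD 10.2) to 152 CPM (SD 4.15) (edgeR adjusted p = 0.00153) and SULF1 down from 3.76 CPM (SD 1.2) to 1.98 CPM (SD 0.415) (edgeR adjusted p = 0.0115). SULF1 missed the threshold when either library numbered 3 was left out, the control and then the knockdown one (edgeR adjusted p = 0.103 and 0.0648), and in both of these fits 2 genes of the list rose and 0 fell. The kinase PRKCA (log2 fold change 0.12) missed the threshold when control replicate 3 or any 1 knockdown library was left out (edgeR adjusted p = 0.0612, 0.102, 0.0507 and 0.112).

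Of 10 tested nucleolar genes beside NCL, 2 fell and 8 did not pass (20% called, against 27.4% of all tested genes). TCOF1, treacle, fell from 112 CPM (SD 4.06) to 79.9 CPM (SD 2.97) and NOLC1, its nucleolar partner, from 169 CPM (SD 5.76) to 126 CPM (SD 2.12, 3 libraries a group, edgeR adjusted p = 1.71e-06 and 2.39e-06). Together, 50 of the 120 tested genes in the 10 lists around the 10 genes were called, 22 higher and 28 lower. That is 41.7%, against 27.4% of all tested genes. Among genes that average 5 CPM or more it was 47 of 106, or 44.3%, against 37.1%.

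**Figure D4:**
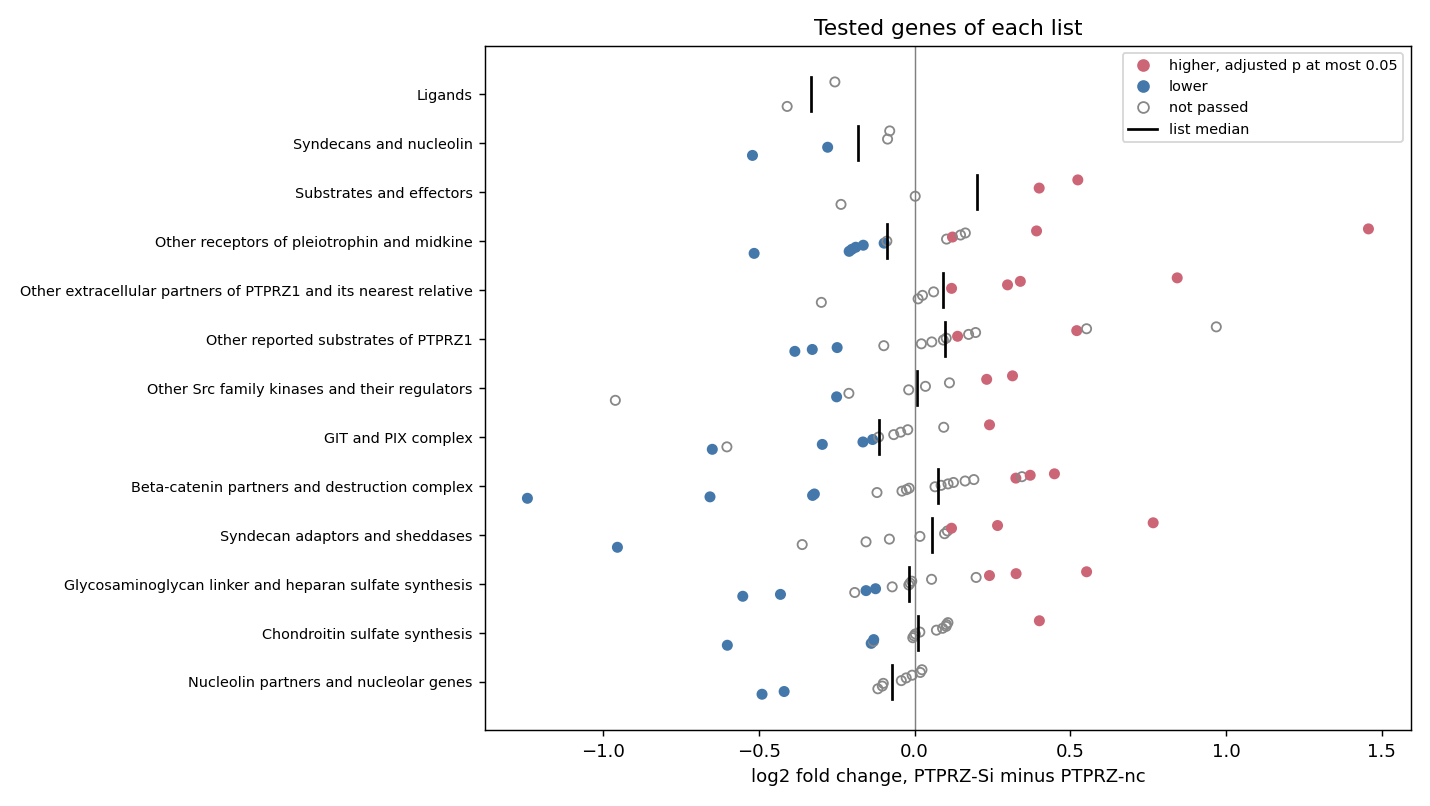
Log2 fold change (PTPRZ-Si minus PTPRZ-nc) of every tested gene, by list; filled points passed (red higher, blue lower), open points did not, and black bars are list medians. The 3 top rows are the 10 genes by role, and most lists hold points on both sides of 0, from CDH3 at -1.24 to ALK at 1.46.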

How the data were processed

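RNA of 6 A498 libraries was counted per gene. The deposited values are raw counts per gene. Per the file headers they come from featureCounts 2.0.1, run on paired reads against exons of Ensembl release 107 (GRCh38) with no strand option, although the kit in the labels is a directional one. The build is hg38 per the submitters' processing notes, and for the aligner no version is given in the sources used here.

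Genes were filtered with filterByExpr (99.8% of counts kept), scaled by TMM (factors 0.994 to 1.01) and tested on the whole table with edgeR 4.0.16 in R 4.3.3 (glmQLFit, glmQLFTest, 2-sided, Benjamini-Hochberg). Standard errors are the log2 fold change over the square root of the F statistic. The procedure was tested on simulated data. limma 3.58.1 (voom) and DESeq2 1.42.0 were alternatives, with other filters and scaling, each library left out, and a replicate block. No library was a copy of another (chi-square of pairs in a group over its degrees of freedom, 2.16 to 6.26).

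Symbols and positions came from a gene name table and GENCODE 29. The deposited file gives no gene lengths, so exon lengths are those of GENCODE 29. The 10 genes, the 10 lists and the tests were chosen with earlier results of these data known. Of each list, up to 3 called genes per direction, taken by p and averaging 1 CPM or more, are named, besides PTPRZ1, RNF26 and the 10 genes.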

Additional observations from a re-analysis of the deposited data

How the results depend on the processing

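SDC1, SDC4, SRC and GIT1 kept their direction and their call under all 13 alternatives run, with log2 fold changes from -0.30 to -0.25, from -0.56 to -0.44, from 0.38 to 0.42 and from 0.51 to 0.54. PTN, MDK, SDC3, NCL, FYN and CTNNB1 passed under none of the alternatives that gave them a value. CTNNB1, near 0 throughout, changed sign to -0.0055 without a filter, and ranged from -0.0235 to 0.0372 when 1 library was left out. The count of called genes ran from 3182 to 4425 over the alternatives and the count of called pathway genes from 36 to 53. Without length scaling, the shift in share from control to knockdown was 0.545 percentage points for SDC1 and 0.803 for SDC3. With principal transcripts, a length chosen after the data were seen, it was 0.309 for SDC1, 1.51 for SDC3 and -0.459 for FYN. Both libraries numbered 2 were left out together as another such choice, with 4219 genes called.

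The shared replicate numbers did not pair the libraries: same-numbered libraries had correlations of 0.0277, 0.0554 and 0.00706 in their deviations from the group means, all under 0.1, and control replicate 3 correlated best with knockdown replicate 1. With the replicate block 4101 genes were called, the same 4 of the 10 among them, and of the named genes CHST15 no longer passed (edgeR adjusted p = 0.0701). PTN and MDK fall below the filter of 5 CPM, and DESeq2 gave PTN no adjusted p, so these fits have no value for them. Depth limits PTN, with 67 counts in all, the most.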

Other observations

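Ratios of 5 gene pairs, chosen after their values were seen, are given per length of exon as descriptions. SRC stood at 5.59, 5.45 and 5.46 times CSK, the kinase that restrains it, in the controls, and at 8.46, 8.97 and 8.51 times in the knockdown, with no overlap (exact 2-sided permutation p = 0.1, the smallest possible). GIT1 stood at 6.38, 7.44 and 5.95 times GIT2 in the controls and at 8.95, 8.9 and 8.45 times in the knockdown, also with no overlap (exact permutation p = 0.1). SDC1 to SDC4 went from a mean ratio of 4.37 to 5.16 and SRC to FYN from 71.5 to 113 (exact permutation p = 0.1 for each). MDK to PTN stood at 5.53, 3.83 and 4.03 in the controls, against 8.11, 2.95 and 3.34 after knockdown, with overlap (exact permutation p = 1). CDC42, a GTPase that most cells use and a partner of PAK kinases, had 0.818, 1.1 and 0.96 CPM in the controls and 0.279, 0.72 and 0.795 CPM in the knockdown. In the annotation used for exon lengths, another gene model shares 57.1% of the exon length of CDC42. That model has no count of its own in these data, so the overlap is not given as a reason for the low counts. Why CDC42 was counted so low was not tested. NDST2, an enzyme of heparan sulfate sulfation with 82.9% of its exon length shared, was too low to test.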
